A study of Triticum aestivum with 18 samples.

Results

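The 82 probe sets described here are those that the study's supplementary annotation places in the MapMan bins for photorespiration and the Calvin cycle, without the sub-bins for the rubisco large subunit and transketolase, and they were found among the 61179 wheat probe sets of the Affymetrix Wheat Genome Array by their identifiers alone. The rule reads no measured value. In the Calvin cycle, rubisco binds CO2 to ribulose bisphosphate, phosphoglycerate kinase and glyceraldehyde phosphate (GAP) dehydrogenase reduce the product to triose phosphate, and triose phosphate isomerase (TPI), aldolase, the bisphosphatases, ribulose phosphate epimerase (RPE) and phosphoribulokinase (PRK) rebuild the acceptor. Photorespiration recovers the phosphoglycolate that rubisco makes when it takes up oxygen, through phosphoglycolate phosphatase, glycolate oxidase, glycine cleavage, serine hydroxymethyltransferase (SHMT) and glycerate kinase in plastids, peroxisomes and mitochondria. Most of these enzymes have relatives outside photosynthesis: cytosolic phosphoglycerate kinase works in glycolysis, cytosolic RPE in the pentose phosphate pathway and cytosolic SHMT in folate metabolism.

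Seeds of 1 Chinese cultivar of bread wheat were germinated in darkness on wet filter paper in water alone (CK), in ABA at 100 mg/L or in H2O2 given as 100 μmol. Embryo and endosperm were separated by hand, with the harvest given as 16 h of imbibition, when the radicle had come through. For the treated seeds the study's methods name only the emergence of the radicle as the end point. Whether the treatments were alike in both time and stage was not tested. The 6 groups are CK_embryo, ABA_embryo, H2O2_embryo, CK_endosperm, ABA_endosperm and H2O2_endosperm, with 3 biological replicates each and 1 array per replicate, 18 arrays in all. All seeds are of the 1 cultivar and the 1 stated time point. A dissected tissue is a mixture of its cell types, so fewer cells of a type and less RNA per cell cannot be told apart. The deposited value is a linear array signal (an intensity), which can be compared between arrays for the same probe set but not between probe sets.

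Of the 82 members, 59 belong to the Calvin cycle and 23 to photorespiration. They rest on 73 sequence accessions, 9 of which have 2 probe sets, and 23 probe sets carry the suffix _x, _s or _a, by which the manufacturer marks probes that match more than 1 transcript, so the counts below are of probe sets and not of genes. The annotation names each by its nearest match, mostly in Arabidopsis: 43 match a plastid protein, 19 a cytosolic, 6 a mitochondrial and 4 a peroxisomal protein, and 10 have no match that gives a compartment. The match was graded highly similar for 3 members, moderately for 36, weakly for 23 and very weakly for 11, and 9 had no grade. Members go by the accession of their sequence, with the suffix where an accession has a pair of probe sets. The annotation of the platform gave 12 of them a gene symbol, of which FBP for both fructose bisphosphatase (FBPase) probe sets and GAPN for the GAP dehydrogenase AF521190 were other than locus names.

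The H2O2_embryo group held 1 array that stood apart. Its replicate 1 had a median signal of 137.9, against 59.0 to 81.0 on the other 17 arrays, and 6.79% of wheat probe sets below 10, against 17.5% to 20.8%. On that array the ratio of the 3 prime to the 5 prime ubiquitin control was 0.0711, against 0.466 to 0.627. The same ratios of the actin, GAP dehydrogenase and elongation factor 1a controls were 0.949, 0.0221 and 1.23. On the other 17 arrays they ran from 0.0733 to 6.83, 0.0154 to 0.915 and 0.0159 to 5.19. These ranges are so wide that the 3 ratios could hardly set an array apart. Its log2 signals correlated at 0.85 with those of replicates 2 and 3, which correlated at 0.95 with each other. The 3 endosperm marker probe sets (gliadin and glutenin) were also taken from the genes that the study lists as changed. Their summed signal there was 876, against 104 and 121 on the other 2 H2O2_embryo arrays and 496 to 1643 over the endosperm groups. The share of members with their highest signal of all arrays there was 35.4% (29 of 82), against 34.7% of all wheat probe sets. The fit pools the variance over all 6 groups, so this array touches every comparison, and values without it (17 arrays) stand beside those that rest on it. The part that its RNA or its mixture of tissues has in them was not tested. The same 3 markers summed to 110.3 to 144 in CK_embryo and 496 to 655 in CK_endosperm. The 12 probe sets listed as embryo markers (agglutinin, Em, late embryogenesis and dehydrin genes) are also among the study's changed genes. They summed to 40185 to 43401 in CK_embryo and 45277 to 46406 in CK_endosperm. That list thus ran against its name, with every CK_endosperm array above every CK_embryo array, and did not mark embryo. It summed to 339959 to 362714 in ABA_embryo and 189453 to 210969 in ABA_endosperm, and its part in the ABA differences was not tested.

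Signals spanned a wide range among the members. A signal of 100 was reached by 23 members on all 18 arrays, by 29 on some and by 30 on none, and 27 lay above the array's median on every array and 22 on none. The rubisco small subunit, the smaller of the 2 kinds of chains of the CO2-fixing enzyme, had 17 probe sets, of which 4 reached 100 on all arrays and 7 on none. SHMT had 6 of 11 such members, TPI 4 of 4, aldolase 2 of 5 and phosphoglycerate kinase 2 of 11. The 2 FBPase and the 2 PRK probe sets, for enzymes that belong to the cycle of the plastid, reached 100 on no array, their highest signals being 89.0 and 99.7. Over the 11 comparisons made below, 20 of the 23 bright members were called in some comparison, 8 of the 29 intermediate ones and 1 of the 30 dim ones. The like shares of all probe sets were not computed. On the whole array brighter probe sets were also called more often, by a looser class and in 1 comparison. Between the CK tissues 35.4% were called of those that reached 100 on at least 3 arrays, against 18.2% of all tested. These shares do not match the counts by brightness, which are thus no result about the members.

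**Figure D1:**
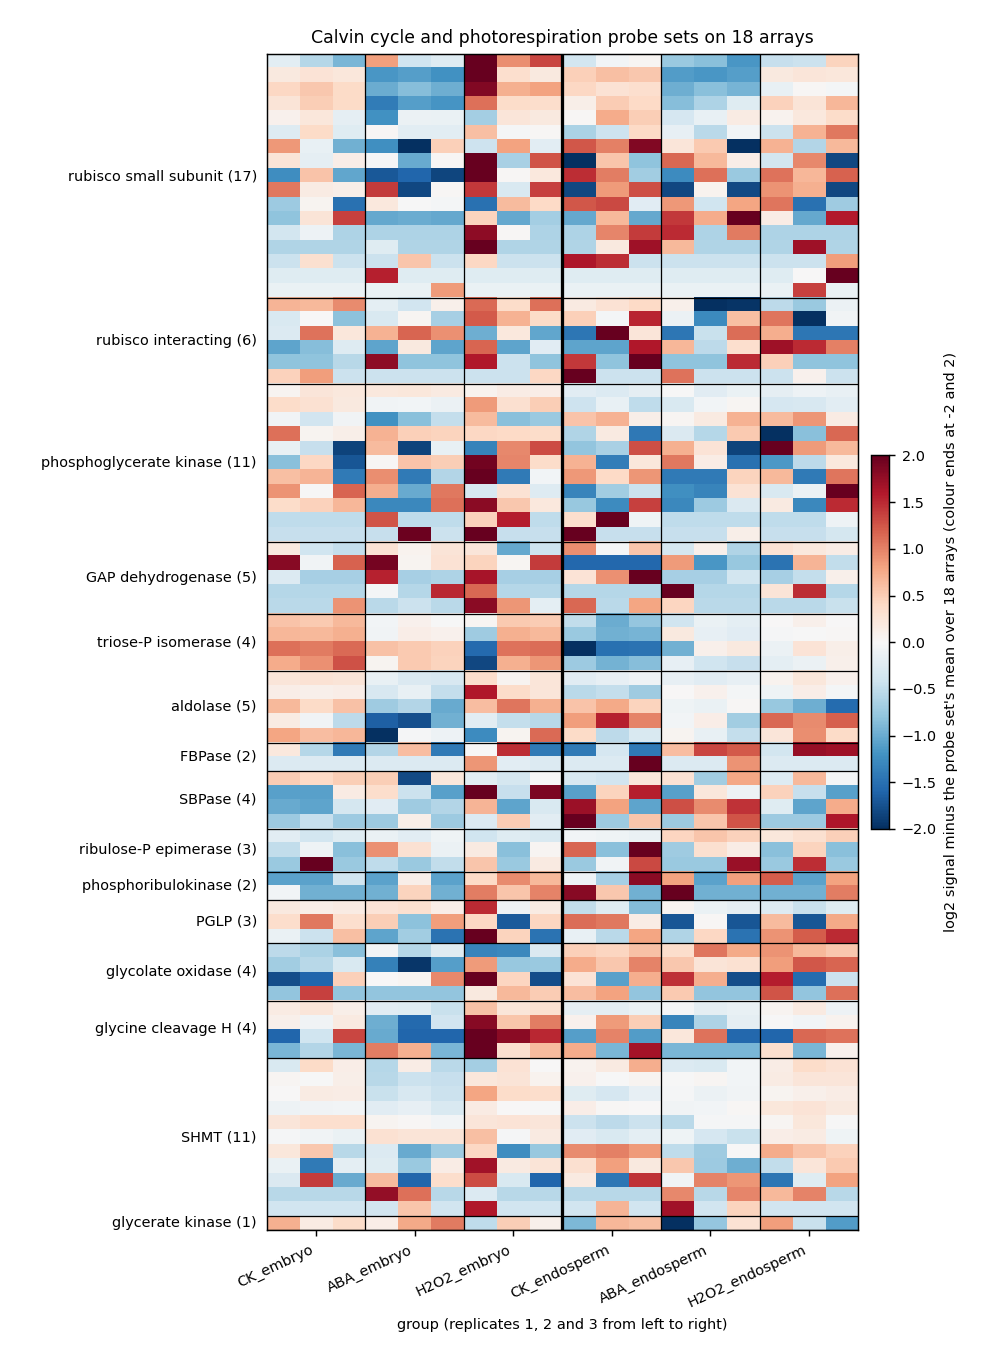
Log2 signal of the 82 members (rows, by enzyme, with their number) on the 18 arrays (columns, replicates 1 to 3 from left to right within a group), each row less its own mean, with signals under 10 set to 10 and the colour scale ending at -2 and 2. In each block the bright members are on top. The triose phosphate isomerase rows are blue in CK_endosperm. Below the top rubisco row, CK212552, those of BJ266715, BE216923 and CA658565 are blue in both ABA groups. The first column of H2O2_embryo stands out, and dim rows vary between replicates of 1 group.

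Of the 82 members, 80 passed the filter on low signals and were tested with the 57992 probe sets that did, and 2 small subunit probe sets (CA656084 and CA698913) did not. A member is called where limma's adjusted p (Benjamini-Hochberg over all 57992) is under 0.05. In ABA_embryo against CK_embryo 0 members were higher and 9 lower, where 5.74% of all probe sets tested were called, 2.66% as higher and 3.08% as lower. Their share was thus 11.2%, and the median log2 difference of the 80 was -0.28 against -0.05 over all probe sets. In ABA_endosperm against CK_endosperm 2 were higher and 5 lower, a share of 8.75% with 6.87% over all (3.26% higher and 3.6% lower), and medians of -0.27 and -0.10. In H2O2_embryo against CK_embryo 1 was higher and 0 lower, with 0.531% called over all (0.188% higher and 0.343% lower), and medians of 0.31 and 0.12. In H2O2_endosperm against CK_endosperm 5 were higher and 1 lower, a share of 7.5% with 5.46% over all (3.08% higher and 2.38% lower), and medians of -0.03 and 0.00. In all, 16 members were called in at least 1 of these 4 comparisons, and the like share of all probe sets was not computed. The ABA and H2O2 comparisons of a tissue share their CK arrays.

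Without H2O2_embryo replicate 1 more members passed in 3 of these comparisons, as did more of all probe sets. The counts were 1 higher and 15 lower for ABA in embryo (12.0% of all probe sets called), 7 higher and 11 lower for ABA in endosperm (15.6%), 1 and 0 for H2O2 in embryo (1.36%), and 11 higher and 3 lower for H2O2 in endosperm (13.8%). The calls of the 18 arrays, 9, 7, 1 and 6, were all among them. The median for H2O2 in embryo moved from 0.31 to 0.04, and over all probe sets from 0.12 to -0.01, so that without that array it lay near 0.

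**Figure D2:**
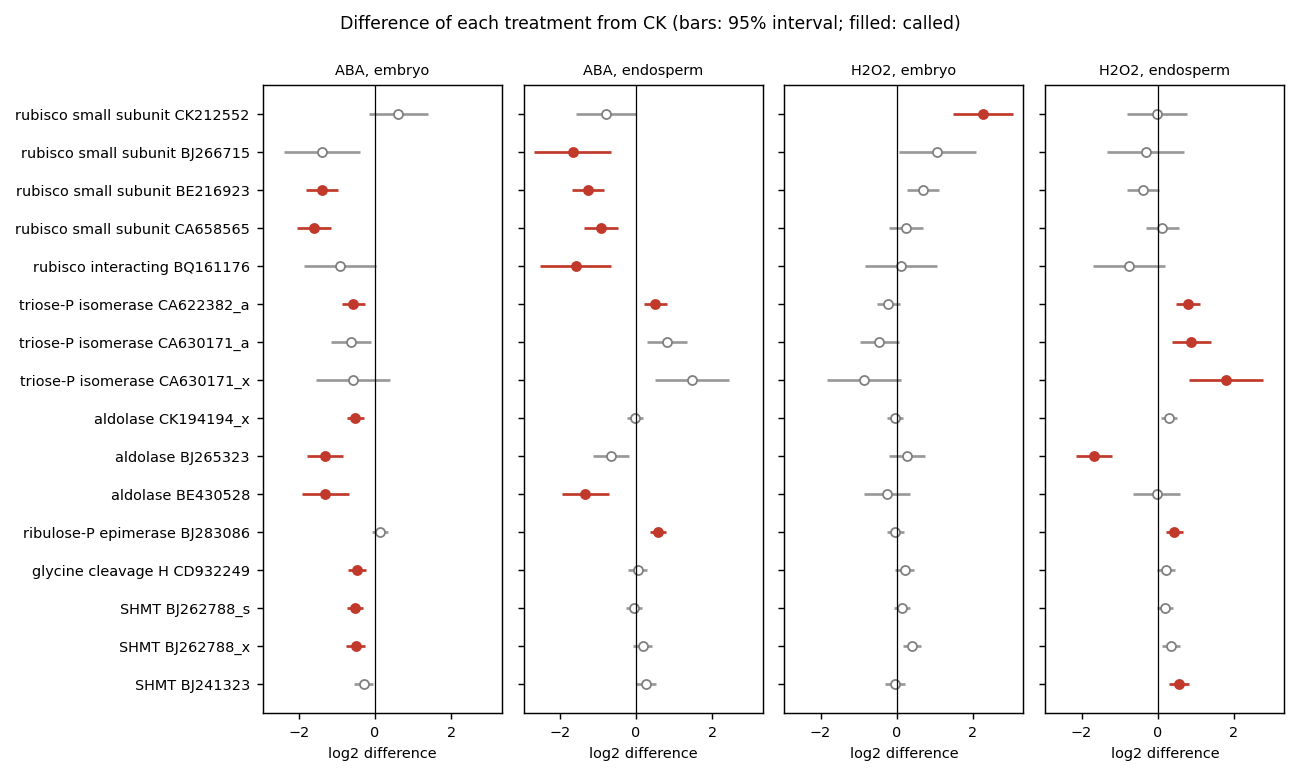
Log2 difference of each treatment from CK in the same tissue (x axis) for the 16 members called in at least 1 of the 4 comparisons, with the 95% interval from limma on 3 arrays a group; filled red marks are called. In embryo the called ABA points lie left of 0 and the only called H2O2 point is CK212552, while in endosperm the triose phosphate isomerase and epimerase points lie right of 0.

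The largest called fall with ABA was that of a rubisco small subunit probe set in either tissue. CA658565 and the small subunit probe sets BE216923, BJ266715 and CK212552 described below all carry the suffix _x. All are matched to the Arabidopsis small subunit, CA658565 graded as very weakly similar and the others as weakly similar. CA658565 had signals of 566, 662 and 619 in CK_embryo, 179, 220.3 and 209 in ABA_embryo, 514, 674 and 620.0 in CK_endosperm and 262, 308 and 399 in ABA_endosperm. All ABA arrays lay below all CK arrays of their tissue. CA658565 fell by 1.61 ± 0.21 (SE) on the log2 scale in embryo, to 0.329 of the CK level (adjusted p = 2.34e-05), and by 0.91 ± 0.21 in endosperm, to 0.531 (adjusted p = 0.00948).

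BE216923 showed the same kind of fall, with 1401, 1528 and 1367 in CK_embryo against 528, 586 and 536 in ABA_embryo, and 1400.5, 1287 and 1322 in CK_endosperm against 533, 589 and 555 in ABA_endosperm. The groups did not overlap in either tissue. The log2 differences were -1.38 ± 0.20 and -1.26 ± 0.20 (adjusted p = 7.87e-05 and 0.000295). BJ266715, whose probe set comes from the same sequence cluster as that of BE216923 and may share its transcripts, gave 1519.7, 1607 and 1544 in CK_embryo and 594, 617 and 573 in ABA_embryo, and 1848, 2004 and 1921 in CK_endosperm and 612, 594 and 617 in ABA_endosperm. BJ266715 was called in endosperm (-1.66, adjusted p = 0.0405) but not in embryo (-1.39, adjusted p = 0.120), although its groups lay apart in both. On H2O2_embryo its replicates read 13608, 1665 and 1524, and without replicate 1 the adjusted p for ABA was 6.77e-12 in embryo and 4.68e-13 in endosperm.

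CK212552 did not share this pattern and was the only member called for H2O2 in embryo. Its signals were 7753, 6038 and 4782 in CK_embryo, 15827, 6823 and 7465 in ABA_embryo and 62869, 17161 and 22616 in H2O2_embryo. Every H2O2_embryo array was above every CK_embryo array, and replicate 1 was far above the other 2. The rise was 2.26 ± 0.37 on the log2 scale, 4.78 times the CK level (adjusted p = 0.00504), and without replicate 1 it was 1.70 on that scale, 3.24 times (adjusted p = 0.00112). In endosperm the arrays read 6930.4, 8629 and 9197 in CK and 6490.4, 6671 and 12266 under H2O2, with overlapping groups and a difference of -0.02 (95% interval -0.80 to 0.76). The H2O2 effect differed between the tissues by 2.27 ± 0.53 (adjusted p = 0.0175; 1.71 and 0.00353 without replicate 1). Under ABA it read 0.62 in embryo and -0.78 in endosperm, neither called with 18 arrays (adjusted p = 0.590 and 0.272), and the latter was lower without replicate 1 (adjusted p = 0.0335).

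Over the 15 small subunit probe sets tested, 0 were higher and 2 lower in ABA_embryo, 0 and 3 in ABA_endosperm, 1 and 0 in H2O2_embryo and 0 and 0 in H2O2_endosperm. Over all probe sets 5.74%, 6.87%, 0.531% and 5.46% were called, and the medians of the 15 were -0.52, -0.78, 0.57 and -0.20. On 17 arrays, H2O2_embryo replicate 1 left out, the counts were 0 and 3, 0 and 4, 1 and 0, and 0 and 2, with 12.0%, 15.6%, 1.36% and 13.8% over all. The 2 then lower in H2O2_endosperm were BE216923 (-0.40, adjusted p = 0.00426) and BJ266715 (-0.32, adjusted p = 0.00975). The 8 of them without a grade of similarity, and others near the floor, were not called in these 4 comparisons, and the size of a difference near the floor is not exact. The summed signal of 229 light reaction probe sets, taken as a check for green tissue, ranged from 100850 to 106856 in ABA_embryo and from 117915 to 120008 in CK_embryo, and from 118003 to 120267 in ABA_endosperm and 133215 to 137503 in CK_endosperm. It was thus lower on every ABA array than on every CK array of the tissue. With H2O2 it ranged from 118805 to 123930 in embryo and from 115800 to 121493 in endosperm, the latter also below every CK_endosperm array. The sum was also higher on every CK_endosperm array than on every CK_embryo array, and the brightest probe sets weigh most in it. It is thus not read here as a measure of green tissue. The part of this sum in the small subunit result was not tested.

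**Figure D3:**
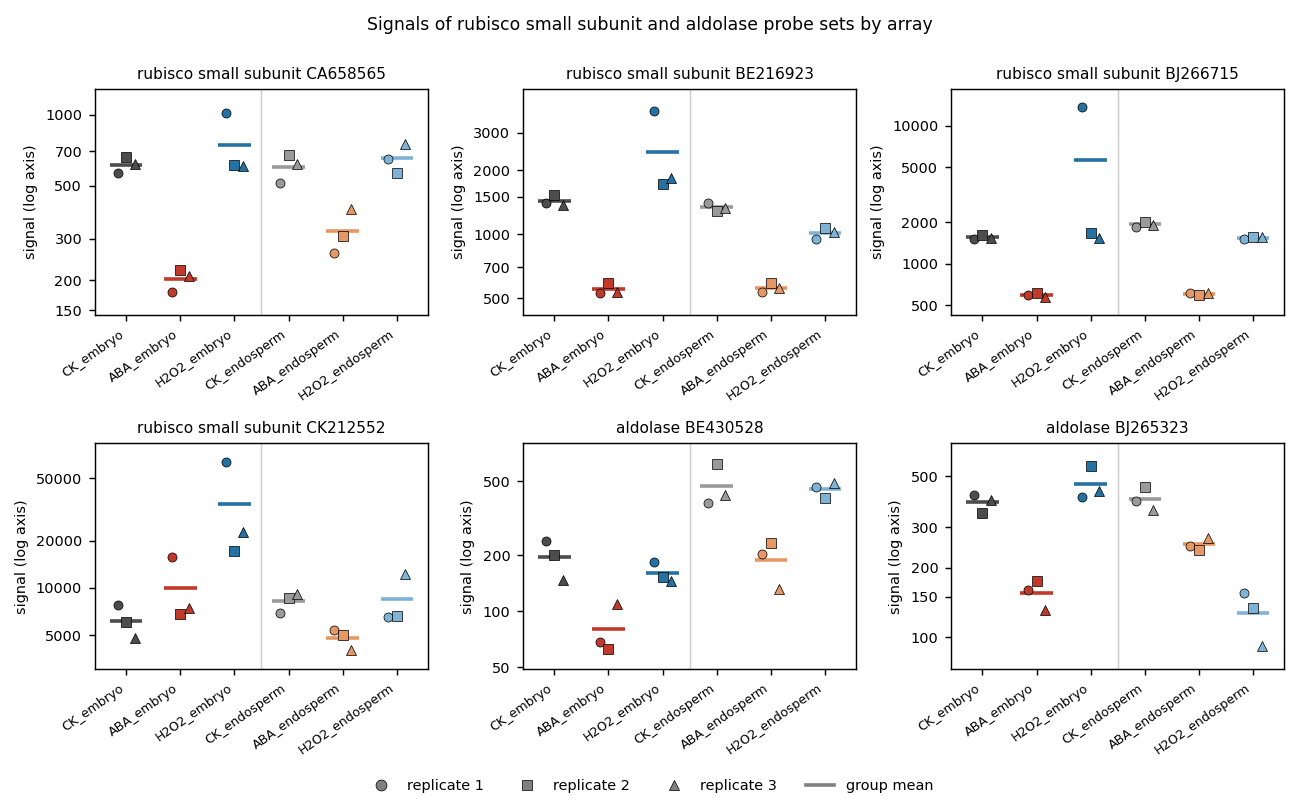
Signal (y axis, log scale) on each of the 18 arrays for 4 rubisco small subunit and 2 aldolase probe sets, with circles, squares and triangles for replicates 1, 2 and 3 and bars for the group mean. CA658565, BE216923 and BJ266715 are lower in both ABA groups; CK212552 is higher in H2O2_embryo; BE430528 is lower in both ABA groups; and BJ265323 is lower in ABA_embryo and lowest in H2O2_endosperm.

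Of the 6 probe sets in the sub-bin of proteins that interact with rubisco, 4 match rubisco activase, the chaperone that frees rubisco of inhibitors, and none of these was called in any comparison. The called member, BQ161176, matches PTAC14, which in Arabidopsis is known for its role in plastid transcription and not for acting on rubisco. It read 145, 156 and 169.6 in CK_endosperm and 138, 31.8 and 32.7 in ABA_endosperm, where replicate 1 lay just below the lowest CK array and the other 2 far below. It fell by 1.58 ± 0.45 in endosperm (adjusted p = 0.0357). In embryo it read 205, 200.2 and 248 in CK and 112, 98.2 and 138 under ABA, a difference of -0.92 that was not called (adjusted p = 0.395).

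None of the probe sets for the 2 steps that reduce the fixed carbon was called against CK with 18 arrays. Phosphoglycerate kinase, which phosphorylates phosphoglycerate, had 11 of them. BJ317763, matched to the cytosolic form, is an example of a bright member with narrow intervals: it read 21179.9, 24052 and 23427 in CK_embryo, 23491, 23837 and 23096 in ABA_embryo and 21226, 22411 and 22221 in H2O2_embryo. The groups overlap, and the 95% intervals of its difference from CK were -0.19 to 0.27 for ABA and -0.29 to 0.17 for H2O2. In endosperm they were -0.13 to 0.33 and -0.14 to 0.31. X15233, matched to the plastid form, read 863, 829 and 767 in CK_embryo and 638, 646 and 617 in ABA_embryo. The arrays lay apart, but its difference of -0.37 was not called with 18 arrays (adjusted p = 0.254) and was with 17 (adjusted p = 0.0489).

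Of the 5 GAP dehydrogenase probe sets, AF521190 has the symbol GAPN, a cytosolic enzyme that oxidises GAP without phosphate and lies outside the Calvin cycle. Its arrays read 503, 259 and 385 in CK_endosperm and 207, 284 and 174 in ABA_endosperm, with overlapping groups and a difference of -0.77 (95% interval -1.41 to -0.13, adjusted p = 0.163, and 0.0395 without H2O2_embryo replicate 1).

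Triose phosphate isomerase, which interconverts the 2 triose phosphates, had 4 probe sets on 2 accessions. All were matched to plastid forms, CA622382 graded as weakly similar and CA630171 as very weakly similar. All are of 1 sequence cluster, so they are not independent. CA622382_a read 2055, 2004 and 2167 in CK_embryo, 1330.1, 1475 and 1385 in ABA_embryo and 1422, 1997 and 1978 in H2O2_embryo. In endosperm it read 991, 701 and 811 in CK, 1051, 1272 and 1216 under ABA and 1395, 1497 and 1392 under H2O2. The order of the groups was opposite in the tissues: ABA arrays lay below CK arrays in embryo and above them in endosperm. It fell by 0.57 ± 0.15 with ABA in embryo (adjusted p = 0.0197), rose by 0.51 ± 0.15 with ABA in endosperm (adjusted p = 0.0387) and by 0.79 ± 0.15 with H2O2 in endosperm (adjusted p = 0.00210). The ABA effects differed between the tissues by -1.08 (adjusted p = 0.00389) and the H2O2 effects by -1.01 (adjusted p = 0.00702). CA622382_x had the same signs but was not called. Its differences were -0.63 with ABA in embryo and 0.50 and 0.77 with ABA and H2O2 in endosperm (adjusted p = 0.676, 0.615 and 0.387). With ABA in embryo CA630171_a and CA630171_x differed by -0.63 and -0.57, also not called (adjusted p = 0.201 and 0.790). With 18 arrays the called fall in embryo thus rests on 1 of the 4 probe sets.

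CA630171_a and CA630171_x gave the same picture in endosperm. CA630171_a read 601, 519.9 and 531 in CK_endosperm, 1159, 901 and 867 in ABA_endosperm and 999, 1001 and 1031 in H2O2_endosperm. CA630171_x read 195, 301 and 305, 435, 911 and 964 and 776, 1019 and 921 in the same groups. In both, every treated array was above every CK array. The rise with H2O2 was called for both (0.88 and 1.78, adjusted p = 0.0407 and 0.0267), and the difference with ABA missed the threshold for both (0.82 and 1.47, adjusted p = 0.0514 and 0.0633). Without H2O2_embryo replicate 1, where these probe sets read 617 and 286 against 1658 and 1799.8 on replicate 2, all 4 isomerase probe sets were called higher in endosperm with ABA and with H2O2, and 3 were called lower in embryo with ABA.

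The H2O2 interaction of CA630171_x shrank from -2.66 to -1.77 and that of CA630171_a from -1.34 to -0.87 when that array was left out, and both were called in either case. The ABA interaction of CA630171_a was -1.45 (adjusted p = 0.0259). In endosperm the summed signal of the 3 endosperm markers moved as well, from 496 to 655 in CK_endosperm to 1405 to 1643 in ABA_endosperm and 940 to 1463 in H2O2_endosperm. These markers were taken from genes that the study lists as changed, so their movement with treatment is no independent check of the tissue. The part of this sum in the isomerase result was not tested.

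Aldolase, which joins triose phosphates to fructose bisphosphate and to sedoheptulose bisphosphate, had 5 probe sets, all matched to plastid forms. BE430528 read 237, 201 and 147 in CK_embryo and 68.2, 62.8 and 109 in ABA_embryo, and 381, 621 and 420.4 in CK_endosperm and 204, 234 and 131 in ABA_endosperm. The groups lay apart in both tissues. It fell in both, with log2 differences of -1.30 ± 0.29 and -1.33 ± 0.29 (adjusted p = 0.00698 and 0.00628), with a difference between the tissues of 0.03 (95% interval -0.84 to 0.89).

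BJ265323 read 415, 346 and 397 in CK_embryo and 161, 176 and 132 in ABA_embryo, and fell by 1.31 ± 0.23 (adjusted p = 0.000556). In endosperm it read 391, 448 and 359 in CK, 249.6, 240.4 and 269 under ABA and 156, 134 and 91.4 under H2O2. The 3 endosperm groups do not overlap, with CK above ABA and ABA above H2O2. With H2O2 it fell there by 1.68 ± 0.23, to 0.312 of CK (adjusted p = 9.05e-05), which was the only fall called for H2O2 among the members with 18 arrays. The ABA_endosperm difference of -0.65 was called only without H2O2_embryo replicate 1 (adjusted p = 0.0971 with it and 0.0347 without). In embryo the H2O2 arrays read 406, 553 and 434, a difference of 0.26 that was not called (adjusted p = 0.641), and the effects differed between the tissues by 1.94 ± 0.32 (adjusted p = 0.00116).

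The pair of probe sets on CK194194 shows how the 1 array bears on a call. CK194194_x read 4779, 4902 and 4788 in CK_embryo and 3638, 3286 and 3219 in ABA_embryo, and fell by 0.51 ± 0.10 (adjusted p = 0.00275). CK194194, without the suffix, read 3177, 3094 and 3171 and 2306, 2606 and 2084, and its difference of -0.44 was not called (adjusted p = 0.440). Its H2O2_embryo arrays read 8741, 3742 and 3411, with replicate 1 apart, and without that array its adjusted p was 0.000864. It was then also higher in endosperm with ABA (0.58, adjusted p = 2.73e-05) and H2O2 (0.57, adjusted p = 5.04e-05), and CK194194_x with H2O2 (0.29, adjusted p = 0.00650). Over the 9 accessions with 2 probe sets and the 11 comparisons, 99 combinations, both probe sets were called in 8, 1 of them in 12 and neither in 79.

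The bisphosphatases and PRK, which also serve to rebuild the acceptor of CO2, had no probe set with a signal of 100 on all arrays and were not called. The highest mean signals were those of CA632100 for FBPase, CK215613 for sedoheptulose bisphosphatase (SBPase) and X51608 for PRK. CA632100 read 4.66, 21.1 and 4.86 in CK_endosperm and 20.7, 89.0 and 86.1 in H2O2_endosperm. The arrays of each group scatter, partly under the floor of 10, and the difference of 2.08 was not called (adjusted p = 0.163). CK215613 read 129.8, 119.6 and 127 in CK_embryo and 78.5, 71.4 and 90.3 in H2O2_embryo, which lie apart, with a difference of -0.65 (adjusted p = 0.610). X51608 read 5.18, 5.66 and 16.0 in CK_embryo and 27.8, 40.6 and 32.8 in H2O2_embryo, also apart (1.51, adjusted p = 0.372). At this precision these differences could not be told from the spread between arrays.

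RPE, the epimerase of these steps, was called through BJ283086, 1 of its 3 probe sets, which matches the cytosolic form of the pentose phosphate pathway. It read 2517, 2452 and 2372 in CK_endosperm, 3509, 3817 and 3604 in ABA_endosperm and 3062, 3258 and 3621 in H2O2_endosperm. Both treated groups were wholly above CK. It rose by 0.57 ± 0.10 with ABA, 1.49 times CK (adjusted p = 0.000957), and by 0.43 ± 0.10 with H2O2, 1.35 times (adjusted p = 0.0140). In embryo the arrays read 2244, 2034 and 2205 in CK, 2381, 2266 and 2472 under ABA and 1979.7, 2212 and 2124 under H2O2, and neither treatment was called (95% intervals -0.08 to 0.35 and -0.25 to 0.18). The differences between the tissues, -0.44 and -0.47, were not called with 18 arrays (adjusted p = 0.149 and 0.0808) and were with 17 (0.00857 and 0.0161).

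**Figure D4:**
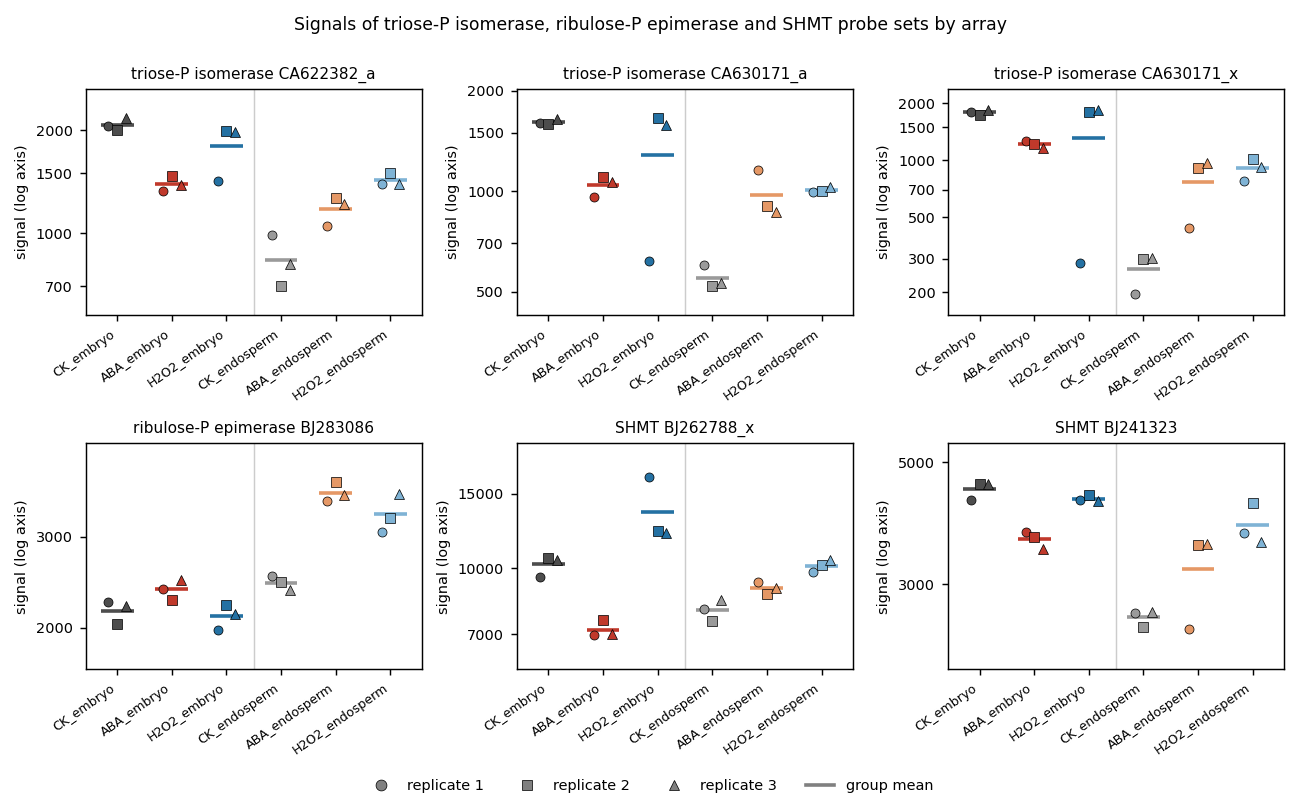
Signal (y axis, log scale) on each of the 18 arrays for 3 triose phosphate isomerase probe sets, the epimerase BJ283086 and 2 SHMT probe sets, with circles, squares and triangles for replicates 1, 2 and 3 and bars for the group mean. The isomerase signals are higher in CK_embryo than in CK_endosperm, and low on H2O2_embryo replicate 1; the epimerase is higher in treated endosperm; SHMT BJ262788_x is lowest in ABA_embryo.

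Over the 23 photorespiration probe sets, 0 were higher and 3 lower in ABA_embryo (median -0.30), 0 and 0 in ABA_endosperm (-0.05), 0 and 0 in H2O2_embryo (0.30) and 1 and 0 in H2O2_endosperm (0.18), where 5.74%, 6.87%, 0.531% and 5.46% of all probe sets were called. On the 17 arrays without H2O2_embryo replicate 1 the counts were 1 and 4, 1 and 3, 0 and 0, and 4 and 0, with 12.0%, 15.6%, 1.36% and 13.8% over all, and the 4 higher in H2O2_endosperm were all SHMT. Phosphoglycolate phosphatase, which opens the pathway, was not called against CK with 18 arrays. BE585966, matched to a cytosolic form, read 482, 575 and 375 in CK_endosperm and 707, 624 and 604 in ABA_endosperm, which lie apart, and its difference of 0.45 (adjusted p = 0.413) was called without H2O2_embryo replicate 1 (adjusted p = 0.0251). Glycolate oxidase, the peroxisomal enzyme that releases H2O2, had 4 probe sets and none was called against CK with 18 arrays. BQ620267 read 233, 259 and 307 in CK_embryo and 149, 98.0 and 176 in ABA_embryo, with no overlap, and its difference of -0.95 (adjusted p = 0.108) was called without H2O2_embryo replicate 1 (adjusted p = 0.00123). CD908152 read 574, 550.5 and 617 in CK_endosperm and 769, 646 and 599 in H2O2_endosperm, with a difference of 0.20 (95% interval -0.31 to 0.72).

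All 4 glycine cleavage probe sets match the H protein, the lipoyl carrier of the mitochondrial complex that splits glycine. CD932249 read 3160.3, 3349 and 3048 in CK_embryo, 2417, 2379 and 2083 in ABA_embryo and 4222, 3325 and 3514 in H2O2_embryo. The ABA arrays were below all other embryo arrays, and the fall from CK was 0.48 ± 0.12 (adjusted p = 0.0137). In endosperm it read 2489.5, 2474 and 2584 in CK and 2781, 2463 and 2559 under ABA, which overlap (95% interval -0.20 to 0.29), and the difference between the tissues of -0.52 was not called with 18 arrays (adjusted p = 0.118) and was with 17 (adjusted p = 0.00404).

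SHMT, which makes serine from glycine and folate-bound carbon, had 11 probe sets. BJ262788, matched to the cytosolic form, has 2 of them. BJ262788_s read 10054, 9779.5 and 10580.0 in CK_embryo and 6628, 7238 and 7126 in ABA_embryo, and BJ262788_x read 9565, 10604 and 10491 and 6958, 7579 and 7001. Both fell in ABA_embryo with no overlap, by 0.54 and 0.51 (adjusted p = 0.00125 and 0.00952). In endosperm BJ262788_x read 8017, 7530.0 and 8415 in CK and 9297, 8729.9 and 8999 under ABA, and the ABA effects differed between the tissues by -0.68 ± 0.17 (adjusted p = 0.0289); for BJ262788_s this was -0.49 (adjusted p = 0.0783).

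BJ241323, matched to the mitochondrial SHMT of photorespiration, read 2662, 2513 and 2672 in CK_endosperm and 3717, 4222 and 3586 in H2O2_endosperm. Every H2O2 array was above every CK array, and the rise was 0.55 ± 0.12, 1.47 times (adjusted p = 0.00969). CK166040, the SHMT probe set with the highest mean signal, read 13612, 21916 and 18268 in CK_embryo and 11281, 18584 and 11488 in ABA_embryo, where the groups overlap (adjusted p = 0.592). In endosperm with ABA its difference of -0.54 (adjusted p = 0.223) was called without H2O2_embryo replicate 1 (adjusted p = 0.0372). Glycerate kinase, the last enzyme of the pathway, is represented by CA600988 alone, which read 89.2, 61.2 and 70.2 in CK_embryo and 59.6, 91.8 and 112 in ABA_embryo and was called nowhere.

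In the direct comparison of the treatments the difference does not use the CK arrays. Its adjusted p does, since the fit pools the variance over all 6 groups. In embryo 0 members were higher and 16 lower with ABA than with H2O2, a share of 20%, where 10.5% of all probe sets were called (4.83% higher and 5.71% lower), and the medians were -0.48 and -0.21. Without H2O2_embryo replicate 1 the count was 1 higher and 18 lower with 13.1% over all, and the median was -0.45 for the members and -0.03 over all. The 16 were 5 small subunit, 4 aldolase, 3 glycine cleavage and 2 SHMT probe sets with 1 glycolate oxidase and 1 phosphoglycerate kinase, and of these the small subunit BE213237 was not called without replicate 1 (-2.69, adjusted p = 0.0349 with it, and -1.81 and 0.178 without). AY123417, a glycine cleavage H protein, read 58.1, 38.9 and 87.7 in ABA_embryo and 405, 168 and 232 in H2O2_embryo, with no overlap (-2.10 ± 0.41, adjusted p = 0.00154, and 0.00658 without replicate 1). BQ620267, a glycolate oxidase, read 149, 98.0 and 176 and 679.9, 224 and 227 (-1.25, adjusted p = 0.0138; -0.72 and 0.0288 without replicate 1).

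In endosperm 1 member was higher and 3 were lower with ABA than with H2O2, with 3.44% called over all probe sets (1.71% higher and 1.73% lower) and medians of -0.22 and -0.10. The higher one was the aldolase BJ265323 (1.03, adjusted p = 0.0108), and the lower ones the aldolase BE430528 (-1.30, adjusted p = 0.0124) and the small subunits CA658565 (-1.03, adjusted p = 0.00577) and BE216923 (-0.86, adjusted p = 0.0166). There were, without H2O2_embryo replicate 1, 1 and 9, with 9.67% over all. The difference between the tissues in this comparison was not tested.

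Between the tissues, 12 members were higher and 3 lower in CK_embryo than in CK_endosperm, where 18.2% of all probe sets were called, 11.2% as higher and 6.96% as lower, so the share of 18.8% was near that of the array. With ABA 2 were higher and 8 lower (16.1% over all, 9.7% higher and 6.39% lower), and with H2O2 9 and 4 (22.7%, 13.1% higher and 9.62% lower). Without H2O2_embryo replicate 1 the counts were 13 and 6 in CK (26.8% over all), 5 and 12 with ABA (24.1%) and 11 and 8 with H2O2 (25.7%), and 3 of the calls with H2O2 were lost: BE585966 (adjusted p = 0.0297 with it and 0.111 without), CD932249 (0.0434 and 0.0698) and BQ161176 (0.0368 and 0.0780). In all, 25 members were called in at least 1 of the 3 and only 3 in each: the glycolate oxidases CD908152 and BQ620267 and the aldolase BE430528, each lower in embryo. The like shares of all probe sets were not computed.

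CD908152 read 285, 264 and 231 in CK_embryo against the 574, 550.5 and 617 of CK_endosperm, 395, 276 and 345 in ABA_embryo against 521, 858 and 696 in ABA_endosperm, and 165, 168 and 334 in H2O2_embryo against 769, 646 and 599 in H2O2_endosperm. The embryo arrays lay below the endosperm arrays in every treatment, with differences of -1.16, -1.02 and -1.67 (adjusted p = 0.00174, 0.00584 and 3.03e-05). BQ620267 read 633, 551 and 751 in CK_endosperm, above its CK_embryo arrays, and was lower in embryo with differences of -1.27, -1.84 and -1.30 in CK, ABA and H2O2 (adjusted p = 0.00705, 0.000285 and 0.00498). With H2O2 its groups overlapped, since replicate 1 of H2O2_embryo, at 679.9, exceeded an endosperm array at 677, and without it the difference was -1.83.

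The 4 isomerase probe sets had the opposite order in CK, higher in embryo by 1.33 to 2.78 with all 4 called, and none was called between the tissues with ABA or with H2O2 over 18 arrays. Without H2O2_embryo replicate 1, 2 were called higher in embryo with ABA and all 4 with H2O2. The mitochondrial SHMT BJ241323 was likewise higher in CK_embryo (0.77, adjusted p = 0.000105) and not called with ABA (0.20) or H2O2 (0.16). The phosphoglycerate kinases X15233 (0.64, adjusted p = 0.00521) and BJ317763 (0.39, adjusted p = 0.0138) and both probe sets of the aldolase CK194194 were also higher in CK_embryo. CD873739, matched to the B subunit of plastid GAP dehydrogenase, read 105, 28.4 and 67.9 in CK_embryo and 4.19, 6.31 and 5.93 in CK_endosperm, so the size of its difference rests on the floor. BJ265323 was higher in embryo with H2O2 (1.89, adjusted p = 2.12e-06) and lower with ABA (-0.70, adjusted p = 0.0374). CA696720, a small subunit probe set lower in embryo with ABA (-2.40, adjusted p = 0.0304), was the dim member called, and lay partly under the floor.

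**Figure D5:**
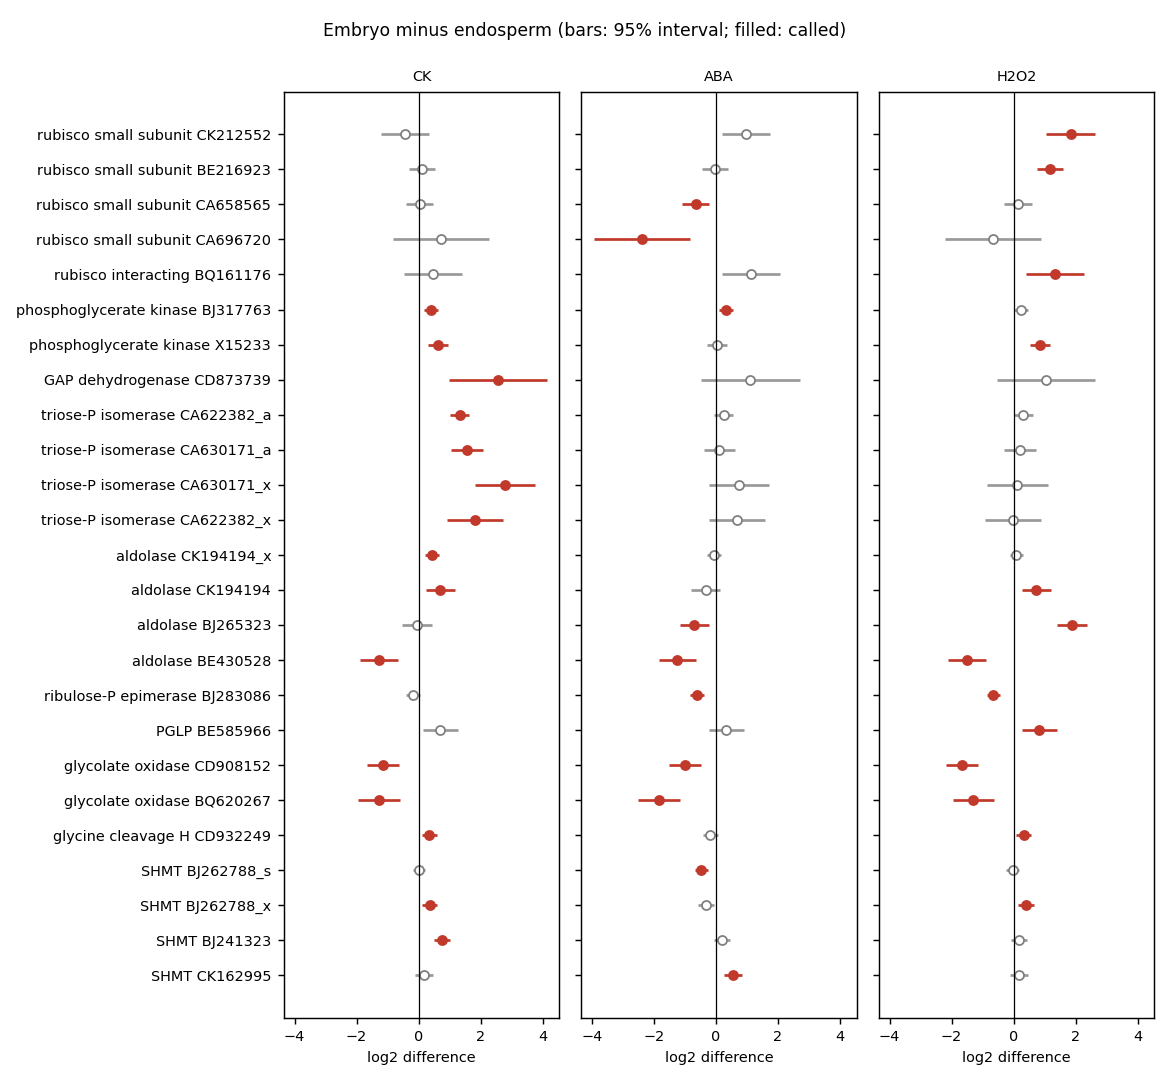
Log2 difference of embryo minus endosperm (x axis) within each treatment for the 25 members called in at least 1 of the 3 comparisons, with the 95% interval from limma on 3 arrays a group; filled red marks are called. The isomerase points lie right of 0 in CK and closer to 0 with ABA and H2O2, and the glycolate oxidases and the aldolase BE430528 lie left of 0 in all 3 panels.

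The treatment effect differed between the tissues for 0 members higher and 3 lower in embryo with ABA (2.64% of all probe sets called, 1.36% higher and 1.28% lower) and for 3 and 3 with H2O2 (3.63%, 1.51% higher and 2.12% lower). With ABA they were the isomerases CA622382_a and CA630171_a and SHMT BJ262788_x. With H2O2 they were the small subunits CK212552 and BE216923 and the aldolase BJ265323 on the 1 side, and 3 isomerase probe sets on the other. BE216923 read 3787, 1716 and 1836 in H2O2_embryo and 951, 1065 and 1026 in H2O2_endosperm, and its interaction of 1.07 (adjusted p = 0.0384) was 0.71 (adjusted p = 0.00144) without replicate 1. The counts without that array were 2 and 12 with ABA (8.94% over all) and 3 and 7 with H2O2 (8.72%).

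By the compartment of the nearest match, 0 of 41 plastid members tested were higher and 6 lower in ABA_embryo (median 0.00), where 5.74% of all probe sets were called, and 1 and 5 in ABA_endosperm (-0.39), with 6.87% over all. The median of 0.00 is that of the FBPase CA725501, whose signals in both groups, 1.93 to 9.98, were all set to 10. It rests on the floor. The counts became, without H2O2_embryo replicate 1, 0 and 11 (12.0% over all) and 5 and 7 (15.6%). Of 19 cytosolic members 0 were higher and 2 lower in ABA_embryo (-0.24) and 1 and 0 in ABA_endosperm (-0.09), and without that array 0 and 2, and 2 and 2. The 10 members without a compartment had medians of -0.46 and -0.71 and 0 calls in the 4 comparisons with CK. Without that array 1 of them was higher in ABA_embryo, 1 lower in ABA_endosperm and 1 higher in H2O2_endosperm (13.8% over all). The other genes of the photosynthesis bins gave the counts below with 18 arrays. Over all probe sets 2.66% were higher and 3.08% lower in ABA_embryo, and 3.26% and 3.6% in ABA_endosperm. The shares with H2O2 were 0.188% and 0.343% in embryo and 3.08% and 2.38% in endosperm. Of 213 light reaction probe sets tested, 2 were higher and 4 lower in ABA_embryo (median -0.14), 3 and 12 in ABA_endosperm (-0.30), 0 and 1 in H2O2_embryo (0.11) and 3 and 9 in H2O2_endosperm (-0.24). Of 51 for the rubisco large subunit, encoded in the plastid genome, the counts were 0 and 1, 0 and 6, 0 and 0, and 0 and 5, with medians of -0.21, -0.52, 0.15 and -0.05. Of 6 for transketolase, 2 were higher and 0 lower in each tissue with ABA, and none was called with H2O2.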

How the data were processed

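Total RNA of hand-dissected embryo and endosperm was hybridised to 18 Affymetrix Wheat Genome Arrays, 3 for each of 6 groups. The deposited values are linear signals (intensities) that the authors made with the MAS5 algorithm, already background-corrected and scaled per array; no probe-level files were used here. Of 61290 probe sets, 111 manufacturer's controls were left out. Signals under 10 were set to 10 and log2-transformed, and probe sets with a signal of at least 20 on at least 3 arrays (57992) were fitted with limma 3.58.1 in R 4.3.3, with a mean for each of the 6 groups, a mean-variance trend and Benjamini-Hochberg adjustment over all of them, at a threshold of 0.05. Tables were made with Python 3.11.15, pandas 2.3.3 and numpy 2.4.6. The fit was tested on simulated data. Raised and lowered floors and filters, other scalings, array weights, a fit on the compared arrays alone, a replicate block and the omission of each array were tried as alternatives. The significance analysis of microarrays named in the methods was not rerun.

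Members were taken from the MapMan bins of the supplementary annotation, whose fold columns were not used. Values per array are given for the member with the highest mean signal in each sub-bin, for the 5 called members with the lowest adjusted p and a group mean of at least 100 in each comparison with CK, and for the 3 called members with the lowest adjusted p in each interaction. Other members named were chosen after their values were seen. The members, the lists compared with them and the tissue markers were chosen with earlier results of these data known. The number of arrays, 3 a group, limits the precision.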

Additional observations from a re-analysis of the deposited data

Results flagged for a closer look

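A test of the difference itself found 9 treatment effects on members that differed between embryo and endosperm (limma, adjusted p under 0.05), given here as the effect in embryo minus that in endosperm on the log2 scale. With ABA the differences were -0.68 for SHMT BJ262788_x, -1.45 for the triose phosphate isomerase probe set CA630171_a and -1.08 for CA622382_a. With H2O2 they were -2.66 for CA630171_x, -1.34 for CA630171_a and -1.01 for CA622382_a, 2.27 for the rubisco small subunit CK212552, 1.07 for the small subunit BE216923 and 1.94 for the aldolase BJ265323. The isomerase probe sets come from 1 sequence cluster and share the CK arrays between treatments, so they are not separate observations. The values with H2O2 include H2O2_embryo replicate 1, the array that stood apart, and all 9 differences were also called without it.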

How the results depend on the processing

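The counts of members called were recomputed under each alternative, in the order ABA in embryo (9), ABA in endosperm (7), H2O2 in embryo (1), H2O2 in endosperm (6), ABA against H2O2 in embryo (16) and endosperm (4), embryo against endosperm in CK (15), ABA (10) and H2O2 (13), and the ABA (3) and H2O2 (6) interactions. No difference called with all arrays turned its direction under any alternative. Counts that moved by over 1.5 times were these. Without the mean-variance trend they were 5, 4, 0 and 2 for the comparisons with CK, and 0 and 1 for the interactions. With array weights they were 21, 12, 2 and 10 for the comparisons with CK, 9 for ABA against H2O2 in endosperm, 19 and 21 for the tissues with ABA and H2O2, and 17 and 10 for the interactions. With the compared arrays alone they were 19, 14, 0 and 13, then 5 and 10 for ABA against H2O2, 16 and 7 for the tissues with ABA and H2O2, and 15 and 3. At an adjusted p of 0.01 they were 4 for ABA and 3 for H2O2 in endosperm, 1 for ABA against H2O2 in endosperm, 6 and 8 for the tissues with ABA and H2O2, and 1 and 2 for the interactions. A floor and filter of 110 gave 2 for H2O2 in embryo, 7 for ABA against H2O2 in endosperm and 8 for the ABA interaction, a floor of 32 gave 5 for the latter, a filter of 100 gave 11 for ABA in endosperm and 5 for the ABA interaction, and quantile scaling gave 3 for the H2O2 interaction. The cause of these shifts was not tested. Leaving out each array in turn gave 6 to 16, 2 to 18, 1 to 5, 3 to 14, 12 to 19, 1 to 10, 10 to 19, 6 to 17, 8 to 19, 1 to 14 and 2 to 10 in the same order. The highest count came from leaving out H2O2_embryo replicate 1 in all but H2O2 in embryo, where it came from leaving out replicate 3 of H2O2_embryo. The lowest came from leaving out CK_embryo replicate 2 (6) for ABA in embryo, CK_endosperm replicate 2 for ABA in endosperm (2) and the ABA interaction (1), H2O2_endosperm replicate 3 (3) for H2O2 in endosperm, ABA_endosperm replicate 3 (1) for ABA against H2O2 in endosperm, CK_embryo replicate 3 for the CK tissues (10) and the H2O2 interaction (2), and ABA_embryo replicate 1 (6) and H2O2_endosperm replicate 1 (8) for the tissues with ABA and H2O2.

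Replicate numbers did not pair the arrays: the correlation of deviations between arrays of 1 number lay between -0.04 and 0.05. With the number as a replicate block the counts were 9, 7, 1, 5, 16, 4, 13, 8, 13, 3 and 6, and 84 of the 90 calls were kept. Only 23 of 82 members had a signal of 100 on all arrays, and differences of dim members depend on the floor.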
